A study of Mus musculus with 4 samples.

Results

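Gcsam, Rgs13, Basp1, Lipc, Mybl1, Neil1, Stap1 and Plxnb2 are 8 of the 31053 genes counted in single CD45+ (white blood) cells from Peyer's patches of the mouse gut, lymphoid organs in the intestinal wall. They were chosen by name as genes that mark germinal-centre B cells, and each was found once in the count matrices under its symbol. Their counts were read by the cluster numbers of the authors' cell table and by group. The groups were SFB-negative and SFB-positive, mice without and with segmented filamentous bacteria, which live attached to the lining of the ileum. All mice were female, wild-type and from Taconic, and their age is not given in the sources used here. Cells of 5 mice were pooled per group, and each library took up 6000 sorted cells with a target of 4000. Each group had 2 libraries, called SFB-negative 1 and 2 and SFB-positive 1 and 2 below after their replicate numbers. The sources used here do not say if the 2 libraries of a group come from different mice, so p-values measure only the spread between libraries, which may be technical.

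Germinal centres are the sites in a follicle where activated B cells divide, mutate their antibody genes and are selected for binding. In Peyer's patches they are kept going by gut microbes and feed the IgA response. Their B cells move between a dark zone, where they divide and mutate, and a light zone, where they carry activation markers such as Cd83 and Cd86 and compete for T-cell help. Confinement to the centre depends on G-protein-coupled receptors, and several of the 8 genes act near that step. Gcsam encodes a germinal-centre adaptor that limits cell motility, Rgs13 a regulator that switches off G-protein signals from chemokine receptors, and Plxnb2 a plexin receptor for class 4 semaphorins. Stap1 encodes an adaptor in signalling from the B-cell receptor. Mybl1 encodes the transcription factor A-MYB and Neil1 a DNA glycosylase of base excision repair. Basp1 encodes a membrane-attached signalling protein best known from neurons, and Lipc hepatic lipase, which cleaves lipoprotein lipids.

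The replicate number stood apart in the files before any group difference. The libraries numbered 1 held 7198366 and 6979187 UMIs (unique molecular identifiers, 1 per captured RNA molecule) and those numbered 2 held 47273320 and 83600989. The authors' table held 22569 cells of these libraries in clusters 0 to 6. Cluster 3 held 148 and 719 cells in SFB-negative 1 and 2, and 203 and 830 cells in SFB-positive 1 and 2. Median UMIs per cluster 3 cell were 4184.5 and 7359 against 4144 and 17122. Cluster 5 existed in the libraries numbered 2 alone, with 258 SFB-negative and 209 SFB-positive cells at 1288.5 and 1115 median UMIs, against 1 and 0 cells in those numbered 1. Between 31 and 42 barcodes per library also occurred in another library, and 13 table barcodes were shared within each pair of same-numbered libraries. Without the shared barcodes, as with them, 0 genes were called between the SFB groups in cluster 3.

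Markers chosen without the 8 genes set the cell types. Mef2b, a transcription factor gene of germinal-centre B cells, was counted at 379.9, 224, 449.7 and 307 CPM (UMI counts of the summed cells, scaled to the same total) in cluster 3 of SFB-negative 1 and 2 and SFB-positive 1 and 2, against 12.03 to 19.0 CPM in cluster 0. Fas, a death receptor gene raised on these cells, was at 122 to 158 CPM in cluster 3 and at 1.75 to 4.09 CPM in cluster 0. S1pr2, the receptor that holds B cells in the centre, was at 69.1 to 109 CPM in cluster 3 and at 83.4 and 91.1 CPM in cluster 5. Cluster 3 is called germinal-centre-like here. Cluster 5 carried the same markers, but it is left unnamed because its cells in SFB-positive 2 had 1115 median UMIs where that library had 5786. Mki67, a gene of dividing cells, was at 794 and 1025 CPM in cluster 5, above 225 and 717 CPM in cluster 3 of the same libraries. Clusters 0 and 1 carried the naive B-cell genes Ighd, Ccr7 and Fcer2a and are called naive-like, and cluster 6 carried the plasma-cell genes Jchain, Xbp1 and Mzb1 and is called plasma-like. Clusters 2 and 4 are left unnamed. Cd3e, a defining T-cell gene, stayed at 2.11 CPM or less in cluster 3.

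The genes lie on 5 chromosomes of GRCm38, the assembly also called mm10, to which the submitters' processing notes refer. All 8 identifiers of the files matched a GENCODE annotation of that build, each as a protein-coding gene. On the plus strand, Gcsam (ENSMUSG00000022659) spans chr16:45610380-45622867 and Stap1 (ENSMUSG00000029254) chr5:86071746-86106125. On the minus strand, Rgs13 (ENSMUSG00000051079) spans chr1:144138654-144177372 and Mybl1 (ENSMUSG00000025912) chr1:9667415-9700209. Neil1 (ENSMUSG00000032298) spans chr9:57142800-57148305 and Lipc (ENSMUSG00000032207) chr9:70798128-70952226. Basp1 (ENSMUSG00000045763) spans chr15:25363277-25413764 and Plxnb2 (ENSMUSG00000036606) chr15:89155549-89180788.

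RefSeq promoter sequences (build GRCm38.p6) were at hand for 6 of the 8 genes, and Mybl1 and Stap1 had no entry. The 250 bases before the start are shown for 3 genes whose level in cluster 3 was above that of clusters 0, 1, 2, 4 and 6 in every library, because their base composition spans a wide range. The G and C share was 36.0% for Rgs13, 54.8% for Neil1 and 78.8% for Basp1. Capitals mark AACNG, the core letters bound by MYB proteins such as the product of Mybl1, on either strand, with overlapping matches joined. The sequences run 5′ to 3′ on the gene's minus strand, from chr1:144177373-144177622, chr9:57148306-57148555 and chr15:25413765-25414014.
Rgs13: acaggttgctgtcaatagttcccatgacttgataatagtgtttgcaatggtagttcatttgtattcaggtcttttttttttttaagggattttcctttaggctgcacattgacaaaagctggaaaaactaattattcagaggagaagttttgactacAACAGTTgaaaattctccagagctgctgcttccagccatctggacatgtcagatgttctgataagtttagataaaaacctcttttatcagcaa
Neil1: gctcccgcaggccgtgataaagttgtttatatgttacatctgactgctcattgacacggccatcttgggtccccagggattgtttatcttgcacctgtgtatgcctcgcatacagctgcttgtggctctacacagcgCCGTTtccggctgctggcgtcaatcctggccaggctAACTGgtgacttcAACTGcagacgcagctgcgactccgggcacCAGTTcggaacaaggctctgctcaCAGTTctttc
Basp1: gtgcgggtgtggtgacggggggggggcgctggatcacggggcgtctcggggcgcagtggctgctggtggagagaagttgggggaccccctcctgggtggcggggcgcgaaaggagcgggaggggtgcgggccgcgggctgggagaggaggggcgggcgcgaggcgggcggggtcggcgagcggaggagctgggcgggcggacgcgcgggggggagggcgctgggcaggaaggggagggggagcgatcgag
Rgs13 held 2 matches, Neil1 5 and Basp1 none. In all, 5 of the 6 genes held AACNG in the first listed promoter, as did 74.2% of 32851 RefSeq promoters of this length. The other motifs were searched on both strands of the first listed promoter. The octamer ATTTGCAT was in none of the 6 and in 1.60% of all promoters, the ETS and IRF composite element in none and in 2.30%, and the MEF2 site in none and in 3.20%. CAGGTG was in the first listed promoter of 1 of the 6 (Neil1), in the second of Plxnb2, and in 17.2% of all. TTTGAA, a core of promoters active in cell division, was in 1 of the 6 (Lipc) and in 16.0% of all. A match is a description of letters, not a bound site.

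The 8 genes did not share a single pattern over the clusters. The clusters were made from these cells, so their levels are given as a description without a test. Gcsam, Rgs13, Basp1, Mybl1, Neil1 and Plxnb2 were highest in cluster 3 or 5 in 4 of 4 libraries, and Lipc in 3 of 4. Stap1 was highest in the naive-like cluster 1 in 4 of 4. Sums of fewer than 20 cells were left out.

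**Figure D1:**
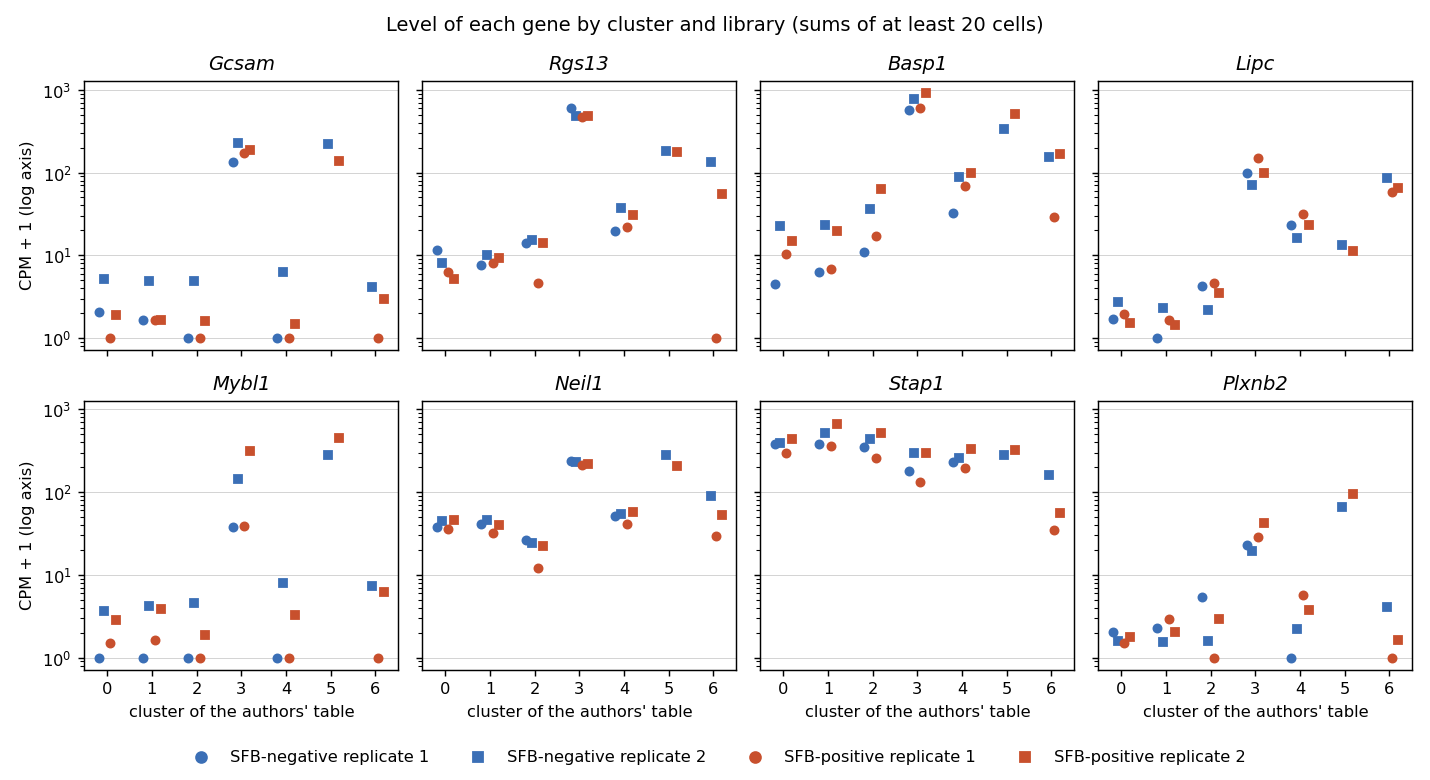
Level of each gene as CPM plus 1 on a log axis against the cluster number, with 1 point per library (colour for the SFB group, shape for the replicate number). Gcsam lies at 132 CPM or more in clusters 3 and 5 and at 5.34 CPM or less in the others, whereas Stap1 runs between 133 and 672 CPM from cluster 0 to cluster 5.

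Among the regulators of movement and signalling, Gcsam was counted, among table cells, mostly in clusters 3 and 5. It was at 132 and 226 CPM in cluster 3 of SFB-negative 1 and 2, and at 171 and 188 CPM in SFB-positive 1 and 2. In cluster 0 its level was 1.05 and 4.17 CPM against 0 and 0.904 CPM. Cluster 3 held between 85.7% and 99.4% of the Gcsam UMIs of table cells, and cluster 5 another 7.17% and 1.84% in the libraries numbered 2. The remainder in SFB-negative 2 was nearly even over clusters 0, 1, 2 and 4, at 3.83 to 5.34 CPM, and T cells outside the table of that library were at 3.66 CPM. As counted, 65.5% of cluster 3 cells of that library had a Gcsam UMI, against 1.37% of those T cells at a median of 3521 UMIs.

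Rgs13 was at 598 and 475 CPM in cluster 3 of the SFB-negative libraries and at 469 and 484 CPM in the SFB-positive ones. Cluster 4 was at 18.9 to 35.8 CPM and cluster 0 at 4.14 to 10.5 CPM, so that cluster 3 exceeded cluster 0 by 56.99 to 117 times. Plasma-like cluster 6 held 135 CPM in SFB-negative 2 (95% Poisson interval 97.5 to 181, counting error only, as for all intervals here), 54.2 CPM in SFB-positive 2 and no UMI in SFB-positive 1, which allows up to 20.9 CPM by the same interval. Other genes of the regulator family were present beside it. Rgs1 was at 232 to 598 CPM in cluster 3 and at 18.3 to 49.4 CPM in cluster 0, whereas Rgs2 was at 131 to 553 CPM in cluster 3 and at 98.9 to 441 CPM in cluster 0. Rgs16 stayed at 1.47 CPM or less in cluster 3.

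Plxnb2 was sparse, with 15, 106, 26 and 612 UMIs in cluster 3 of SFB-negative 1 and 2 and SFB-positive 1 and 2. These gave 22.0 and 18.4 CPM against 27.4 and 41.3 CPM. In cluster 0 it stayed between 0.486 and 1.05 CPM. Of the other B-class plexins, Plxnb1 and Plxnb3 stayed at 0.135 CPM or less in cluster 3 of all 4 libraries. Of the class 4 semaphorins on the list, Sema4d was at 91.6 to 137 CPM and Sema4b at 19.4 to 38.1 CPM in cluster 3, Sema4a was at 2.11 CPM or less and Sema4c had no UMI there.

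Stap1 went against the label of a germinal-centre gene in these cells. It was at 179 and 295 CPM in cluster 3 of the SFB-negative libraries and at 133 and 294 CPM in the SFB-positive ones. Cluster 1 stood higher in each library, at 381 and 521 CPM against 356 and 672 CPM. The ratio of cluster 3 to cluster 0 was 0.451 to 0.752. Cluster 3 held 5.61% to 16.1% of the Stap1 UMIs of table cells, below its 10.8% to 24.8% of all their UMIs in each library. As a share of cells with a UMI, cluster 3 was nevertheless higher than cluster 0 in every library (50 against 36.2% in SFB-negative 1, and 92.5 against 78.5% in SFB-positive 2), at median depths of 4184.5 against 1209 UMIs and 17122 against 5249 UMIs. At 500 UMIs per cell the order turned, to 8.61 against 16.8% in SFB-negative 1 and 14.3 against 19.3% in SFB-positive 2.

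Mybl1 and Neil1 act on the genome, as transcription factor and repair enzyme. Mybl1 was at 36.7 and 143 CPM in cluster 3 of the SFB-negative libraries and at 38.0 and 312 CPM in the SFB-positive ones. The libraries numbered 1 were low and those numbered 2 high in both groups, so its levels followed the replicate number more than SFB. It was close to absent elsewhere: SFB-negative 1 had 25 Mybl1 UMIs in table cells, all in cluster 3, and in SFB-negative 2 cluster 3 held 78.7% and cluster 5 another 12.9%. Of the relatives, Mybl2 was at 25.6 to 96.1 CPM in cluster 3 and Myb at 7.62 to 27.0 CPM.

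Neil1 was at 239 and 227 CPM in cluster 3 of the SFB-negative libraries and at 212 and 219 CPM in the SFB-positive ones, the narrowest spread of the 8 genes relative to its mean (224 ± 11.6 CPM, SD, n = 4). Naive-like cells carried it too, at 35.0 to 45.1 CPM in cluster 0 and 30.6 to 45.3 CPM in cluster 1. Cluster 3 was 4.86 to 6.51 times above cluster 0, and cluster 0 held 11.6% to 28.5% and cluster 1 12.8% to 16.6% of the Neil1 UMIs of table cells. Cluster 2 was the lowest of clusters 0 to 4, at 11.02 to 25.4 CPM. T cells outside the table held 18.7 to 36.2 CPM, below cluster 0 in 4 of 4 libraries. Of its relatives Neil3 was at 33.7 to 84.5 CPM in cluster 3 and at 0.491 CPM or less in cluster 0, and Neil2 at 0.173 CPM or less in cluster 3.

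Basp1 and Lipc encode the membrane and lipid proteins, and both were also counted outside clusters 3 and 5. Basp1 was at 565 and 780 CPM in cluster 3 of the SFB-negative libraries and at 602 and 906 CPM in the SFB-positive ones. The libraries numbered 2 were the higher of each group. Cluster 4 held 31.4 and 88.4 CPM against 68.1 and 96.5 CPM, which left cluster 3 between 8.83 and 18.0 times above it. Plasma-like cluster 6 was at 154 CPM in SFB-negative 2 and at 28.4 and 167 CPM in SFB-positive 1 and 2. T cells outside the table were at 24.2 to 48.3 CPM, above cluster 0 (3.50 to 21.7 CPM) in all 4 libraries.

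Lipc was at 96.8 and 70.6 CPM in cluster 3 of the SFB-negative libraries and at 149 and 96.8 CPM in the SFB-positive ones. Cluster 6 reached 84.6 CPM in SFB-negative 2 (interval 55.8 to 123), above cluster 3 of that library but with overlapping intervals. In SFB-positive 1 and 2 cluster 6 was below cluster 3, at 56.7 and 64.5 CPM. Cluster 4 stood at 15.2 to 30.5 CPM, with cluster 3 between 4.40 and 4.88 times above it. Clusters 0 and 1 were at 1.72 CPM or less. The related lipase gene Lipg stayed between 1.01 and 4.40 CPM in cluster 3, and Lpl at 1.47 CPM or less.

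Cluster 5 differed from cluster 3 gene by gene, within the 2 libraries that held both. Mybl1 was higher in cluster 5, at 277 CPM (interval 232 to 327) against 143 CPM in SFB-negative 2, and at 450 CPM (386 to 523) against 312 CPM in SFB-positive 2. Plxnb2 was also higher, at 65.1 (44.5 to 91.9) against 18.4 CPM and at 93.7 (65.6 to 130) against 41.3 CPM. In both libraries the intervals of clusters 3 and 5 did not overlap for these genes.

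Rgs13, Basp1 and Lipc were lower in cluster 5 in both libraries. Rgs13 was at 179 and 177 CPM against 475 and 484 CPM in cluster 3. Basp1 was at 338 and 515 CPM against 780 and 906 CPM. Lipc was near its floor, with 6 and 4 UMIs, or 12.2 and 10.4 CPM against 70.6 and 96.8 CPM. Gcsam (222 and 138 CPM), Neil1 (281 and 208 CPM) and Stap1 (277 and 323 CPM) did not separate from cluster 3 the same way in both. Of the cycling genes, Stmn1 was at 250 and 271 CPM in cluster 5 against 881 and 839 CPM in cluster 3, while Top2a was at 743 and 664 against 456 and 677 CPM. The part of depth and RNA content in these differences was not tested.

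Within cluster 3 the genes fell apart by the state of the cell. Each cell was set to 1000 UMIs by the exact expected share of cells with a UMI, which kept 147 of 148 and 200 of 203 cells of the libraries numbered 1 and all cells of the others. Cells with and without a UMI of 8 cycling genes (Mki67, Top2a, Birc5, Ccna2, Cdk1, Pcna, Mcm5 and Stmn1) were then compared, as a description. Gcsam was found in 13.1, 21.1, 16.5 and 17.2% of cells with a cycling UMI in SFB-negative 1 and 2 and SFB-positive 1 and 2, and in 4.73, 15.7, 10.5 and 13.5% of cells without one. The first share was the higher in each library. Mybl1 and Plxnb2 also sided with the cycling cells in 4 of 4 libraries, at 17.7 against 16.4% and 3.40 against 2.47% of cells over all 4. Their sides in the libraries numbered 1 rest on few cells. Over all barcodes, SFB-negative 1 and SFB-positive 1 held 30 and 42 Mybl1 UMIs and 32 and 47 Plxnb2 UMIs.

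Rgs13 went the other way, at 32.4, 35.2, 29.1 and 33.3% of cells with a cycling UMI and 49.7, 35.5, 41.9 and 38.0% of those without. The first share was the lower in each library, with the narrowest gap in SFB-negative 2 and the widest in the libraries numbered 1. Stap1 (21.6 against 28.2% over the 4 libraries), Neil1 (19.9 against 22.4%) and Lipc (8.62 against 10.1%) were also lower with the cycling genes in 4 of 4 libraries. Basp1 was higher in 2 and lower in 2.

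Cd83, a light-zone marker, divided them again. Gcsam was in 7.90, 13.3, 10.99 and 12.5% of cells with a Cd83 UMI and in 12.5, 20.9, 17.5 and 17.7% of cells without, lower in 4 of 4 libraries. Lipc, Mybl1 and Neil1 were lower with Cd83 in 4 of 4 as well, by smaller margins. Basp1 was higher with Cd83 in 4 of 4 libraries, at 42.5, 52.9, 43.4 and 58.6% against 34.5, 48.8, 39.9 and 53.6%. Stap1 was higher too, at 25.8 against 23.1% over the 4 libraries. With Cd86, Gcsam was lower (13.3 against 17.5%) and Stap1 higher (28.1 against 22.7%), each in 4 of 4. With the dark-zone receptor gene Cxcr4, Gcsam showed no side (16.4 against 16.5%), and Plxnb2 (3.84 against 2.94%), Stap1 (25.5 against 23.8%) and Neil1 (21.5 against 20.7%) were higher in 4 of 4. Basp1 was lower with Cxcr4 in 4 of 4, at 48.5 against 50.7%.

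**Figure D2:**
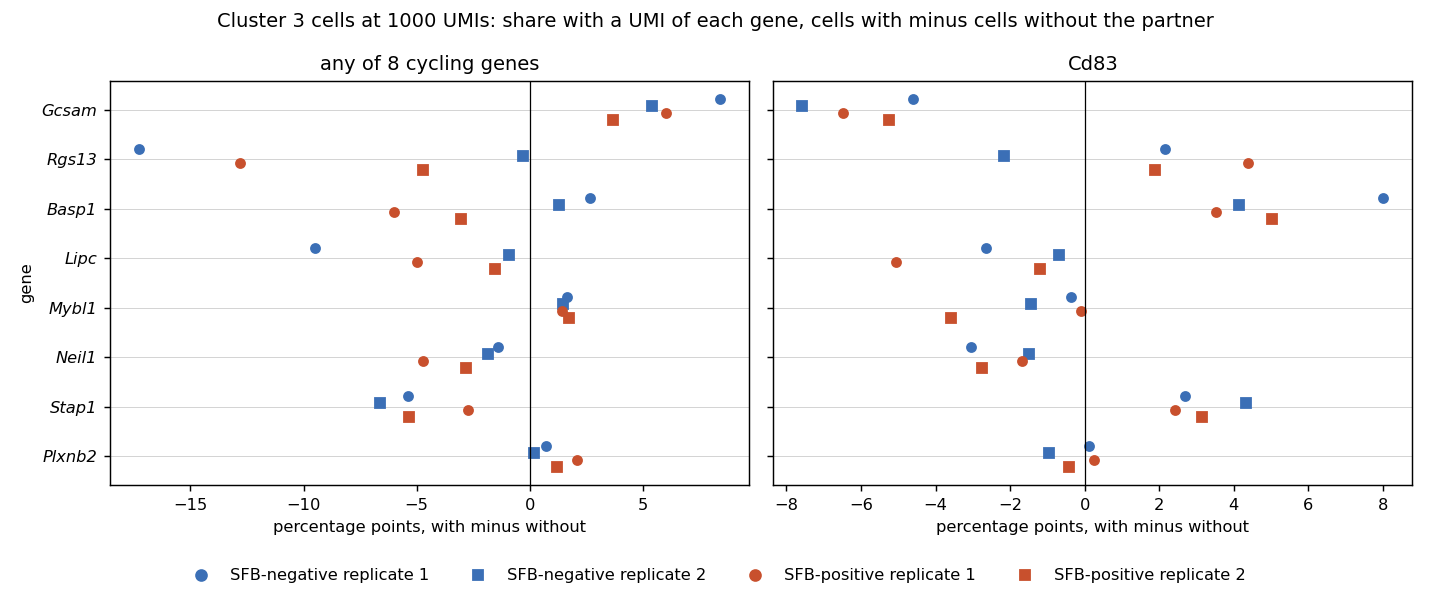
Difference, in percentage points, between the share of cluster 3 cells with a UMI of each gene among cells with and without a UMI of 8 cycling genes (left) or of Cd83 (right), at 1000 UMIs per cell, with 1 point per library. Gcsam lies right of 0 for the cycling genes and left of 0 for Cd83 in all 4 libraries, and Stap1 the reverse.

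Cells of cluster 3 with a UMI of 8 naive markers had lower shares of Gcsam (11.5 against 18.4%), Lipc (6.79 against 10.0%), Rgs13 (30.6 against 36.7%) and Neil1 (18.1 against 21.8%), in 4 of 4 libraries each. Stap1 was higher in them in 4 of 4, at 25.9 against 23.3%.

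Co-detection compared the number of cells with UMIs of both genes of a pair with the number expected if the genes were independent within a library. In cluster 3 at 1000 UMIs per cell the median ratio over the 28 pairs was 1.04, with 21 pairs above 1 and a range of 0.959 to 1.26. The library medians were 1.05, 1.06, 1.06 and 1.05. Pairs with Gcsam led: Gcsam and Plxnb2 at 1.26 (11.9 cells against 9.50 expected), Gcsam and Mybl1 at 1.25 (68.3 against 54.5) and Gcsam and Neil1 at 1.21 (78.9 against 65.0), each above 1 in 4 of 4 libraries. Single libraries carried little of this for the sparse pairs. For Gcsam and Plxnb2, 0.289 and 2.98 cells were expected in SFB-negative 1 and 2 and 0.950 and 5.27 in SFB-positive 1 and 2. For Gcsam and Mybl1, 0.513 and 1.02 cells were expected in the libraries numbered 1. Rgs13 and Lipc were at 1.18, above 1 in 4 of 4 and between 1.17 and 1.21 in each. Lipc and Neil1 (1.15) and Mybl1 and Neil1 (1.14) were also above 1 in 4 of 4, with 1.15 and 1.30 cells expected for Mybl1 and Neil1 in the libraries numbered 1. Gcsam with Basp1 (0.988) and Gcsam with Stap1 (0.979) were near 1.

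In cluster 5 at 500 UMIs per cell the median ratio was 0.982, with 12 of 28 pairs above 1. For 13 pairs at least 5 cells were expected, and 4 of them were above 1. At 1000 UMIs per cell the median was 1.02, on the other side of 1, with 15 of 28 pairs above 1 and 12 of the 19 with at least 5 expected cells. That depth kept 198 of 258 cells in SFB-negative 2 and 126 of 209 in SFB-positive 2, while 500 UMIs kept all. At 500 UMIs Mybl1 and Neil1 were at 1.28 (11.9 cells against 9.26) and Gcsam and Mybl1 at 1.24 (8.50 against 6.88). Both pairs were above 1 in both libraries, as in cluster 3, and stood at 1.09 and 1.33 at 1000 UMIs. Among pairs with at least 5 expected cells at 500 UMIs, Neil1 and Stap1 were lowest, at 0.738 (5.17 against 7.01). Without thinning, the median ratio in cluster 5 was 1.20 and 26 of 28 pairs were above 1, while in cluster 3 it stayed at 1.04 with 28 of 28 above 1. In single cells as counted, the median cluster 3 cell held UMIs of 3 and 5 of the 8 genes in SFB-negative 1 and 2, and of 4 and 7 in SFB-positive 1 and 2. All 8 were found together in 1, 17, 0 and 176 cells, an order that follows the depth of the libraries.

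**Figure D3:**
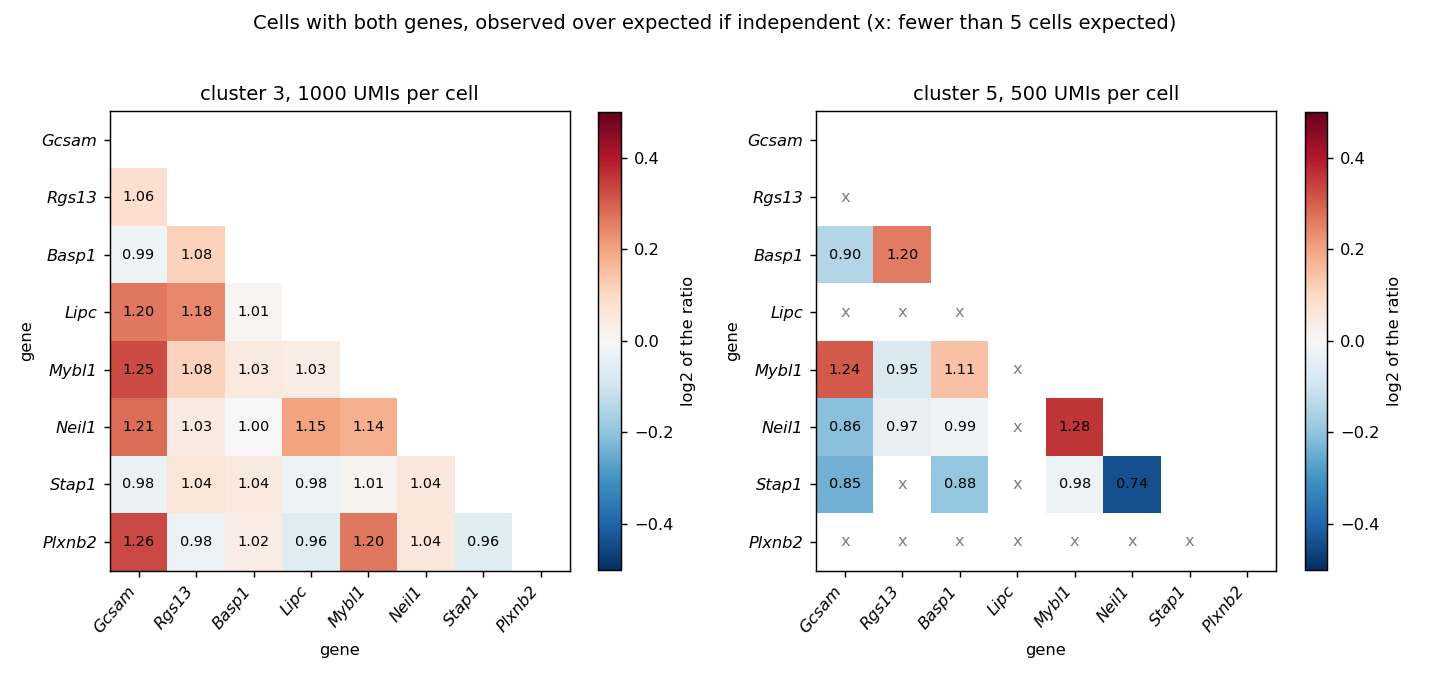
Ratio of observed to expected cells with both genes of a pair, in cluster 3 at 1000 UMIs per cell over 4 libraries and in cluster 5 at 500 UMIs per cell over 2, with colour for its log2. Gcsam is at 1.20 to 1.26 with Lipc, Mybl1, Neil1 and Plxnb2 in cluster 3, and pairs with fewer than 5 expected cells are marked x.

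The comparison of SFB-positive with SFB-negative libraries asks how these genes relate to colonisation, the subject of the series. In cluster 3 none of the 8 passed the edgeR quasi-likelihood test at an adjusted p of 0.05. The background was 0% of 9876 genes tested without the replicate number in the model and 1.35% (133 genes) with it as a block, and 0 of the 8 were called either way. The test without the block had 12 of 9876 genes at an unadjusted p under 0.05, and DESeq2 called 0. With no difference in any gene, a share of about 0.05 of them would be under that limit. The test was therefore strict, and its 0 calls do not show that SFB made no difference. The groups' CPM did not overlap for 3 of the 8 (Lipc and Plxnb2 higher, Neil1 lower with SFB), against 13.9% of all genes tested. The exact two-sided permutation p was 0.33 for each of these 3, the smallest that 2 against 2 libraries allow. For Lipc the gap was within rounding (96.8 CPM in both SFB-negative 1 and SFB-positive 2).

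Without the block the log2 difference was 0.68 ± 0.57 (SE) for Plxnb2, 0.75 ± 1.06 for Mybl1 and 0.48 ± 0.57 for Lipc, and the adjusted p by edgeR was 1.00 for all 8. Plxnb2 had the largest difference of the 8 in cluster 3 with the block, at log2 0.77 ± 0.31 (SE, adjusted p = 0.287 by edgeR). Its CPM was 5.45 higher with SFB within the libraries numbered 1 and 22.98 higher within those numbered 2. Mybl1 stood at 0.62 ± 0.33 (adjusted p = 0.583 by edgeR with the block), with 1.33 and 168 CPM within the numbers. Lipc was at 0.41 ± 0.29 (adjusted p = 0.761 by edgeR with the block), with 52.0 and 26.2 CPM. Basp1 was at 0.05 ± 0.37, and Gcsam (-0.09 ± 0.31), Rgs13 (-0.26 ± 0.34), Neil1 (-0.22 ± 0.32) and Stap1 (-0.31 ± 0.32) were below 0, with adjusted p from 0.880 to 0.992 by the same edgeR fit. Gcsam and Rgs13 changed sign between the numbers, at 39.0 and -37.5 CPM and at -129.8 and 9.85 CPM. The median log2 difference of the 8 genes was -0.02 with the block, beside 0.09 over all genes tested.

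**Figure D4:**
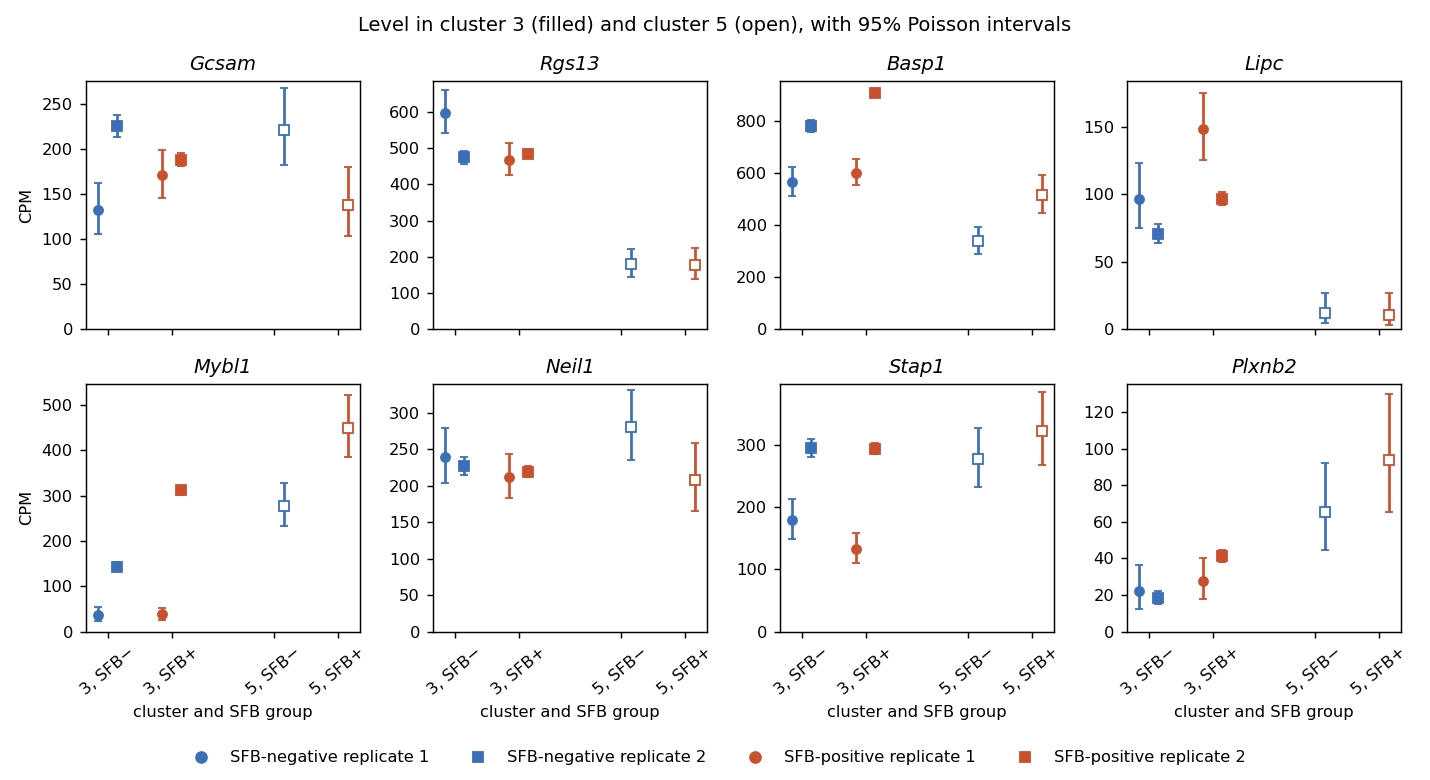
CPM of each gene in cluster 3 (filled) and cluster 5 (open) by SFB group, with 1 point per library and 95% Poisson intervals that cover counting error only. Mybl1 in cluster 3 is split by replicate number (36.7 and 38.0 against 143 and 312 CPM), and Neil1 lies between 212 and 239 CPM in all 4 libraries.

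As shares of cluster 3 cells with a UMI at 500 UMIs per cell, Gcsam was in 5.40 and 10.2% against 8.03 and 8.62%, and Rgs13 in 24.9 and 20.6% against 19.95 and 21.0%. The groups overlapped for both. Plxnb2, in 0.943 and 1.12% against 1.54 and 2.02%, and Neil1, in 12.6 and 11.5% against 10.2 and 10.9%, lay on the same side of the groups as their CPM (exact permutation p = 0.33). Lipc, the other gene whose CPM did not overlap, was in 6.20 and 3.48% against 7.44 and 4.93% of cells, and its groups overlapped. Cluster 5 had 1 usable library per group and therefore no test. There Mybl1 (450 against 277 CPM), Basp1 (515 against 338 CPM) and Plxnb2 (93.7 against 65.1 CPM) were higher in the SFB-positive library, and Gcsam (138 against 222 CPM) and Neil1 (208 against 281 CPM) lower.

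Over all table cells the share of cluster 3 enters the level. Cluster 3 made up 3.65 and 9.30% of table cells in SFB-negative 1 and 2 and 5.96 and 11.2% in SFB-positive 1 and 2. In such sums more cells of a type and more RNA per cell cannot be told apart. Lipc was at 12.9 and 15.9 CPM against 28.5 and 28.6 CPM, and Mybl1 at 3.94 and 32.6 CPM against 6.38 and 82.0 CPM. The Lipc groups did not overlap, and the Mybl1 groups did. With the replicate block 2 of the 8 genes were called, beside 3.61% of 12268 genes tested. Lipc rose by 0.78 ± 0.22 on the log2 scale (SE, adjusted p = 0.0136 by edgeR) and Mybl1 by 0.92 ± 0.24 (adjusted p = 0.00716 by edgeR). Without the block the differences were 0.83 ± 0.47 for Lipc and 0.97 ± 1.39 for Mybl1, and neither passed. With the block most genes took a spread estimated over all genes together, so its p-values rest mainly on that shared spread. Plxnb2, at 0.82 ± 0.28, did not pass (adjusted p = 0.0830 by edgeR with the block).

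Without the block 0 of the 8 were called over all table cells, beside 0% of genes tested, 12 at an unadjusted p under 0.05 and 2 genes by DESeq2. As in cluster 3, those 12 are far under a share of 0.05 of the genes, so the test was strict. CPM did not overlap between the groups for 2 of the 8, Lipc and Plxnb2, against 11.2% of genes tested. Basp1 was at 67.1 and 170.1 against 108 and 258 CPM, Gcsam at 14.8 and 47.2 against 27.4 and 48.2 CPM, and Stap1 at 343 and 395 against 265 and 454 CPM, all with overlapping groups. Of 8 cycling genes only Mki67, a marker of dividing cells, passed with the block over all table cells (log2 1.02 ± 0.25, adjusted p = 0.00239 by edgeR). Of 15 tested relatives of the 8 genes, 2 passed: Mybl2 (1.07 ± 0.24, adjusted p = 5.13e-04 by edgeR) and Neil3 (1.04 ± 0.26, adjusted p = 0.00296 by edgeR). Of 8 light-zone genes, 1 was called higher in the same fit. Markers of other cells passed there too, with Jchain, 1 of 7 plasma-cell markers, higher (1.41 ± 0.35, adjusted p = 0.00354 by edgeR) and, of 4 epithelial markers, Epcam lower (-0.95 ± 0.24, adjusted p = 0.00354 by edgeR). Of these 4, 2 were above 0 with the block and 3 without it (median log2 -0.15 and 1.35). Of 3 tested myeloid markers Itgax was higher and Fcer1g and Lyz2 were lower, and of 7 memory markers Nt5e was higher, while 0 of 6 T-cell markers passed. The part of the cluster 3 share or of other cells in these calls was not tested. In cluster 3 alone, none of these genes that entered the test passed. No myeloid marker and only 1 of the 4 epithelial markers entered it there.

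**Figure D5:**
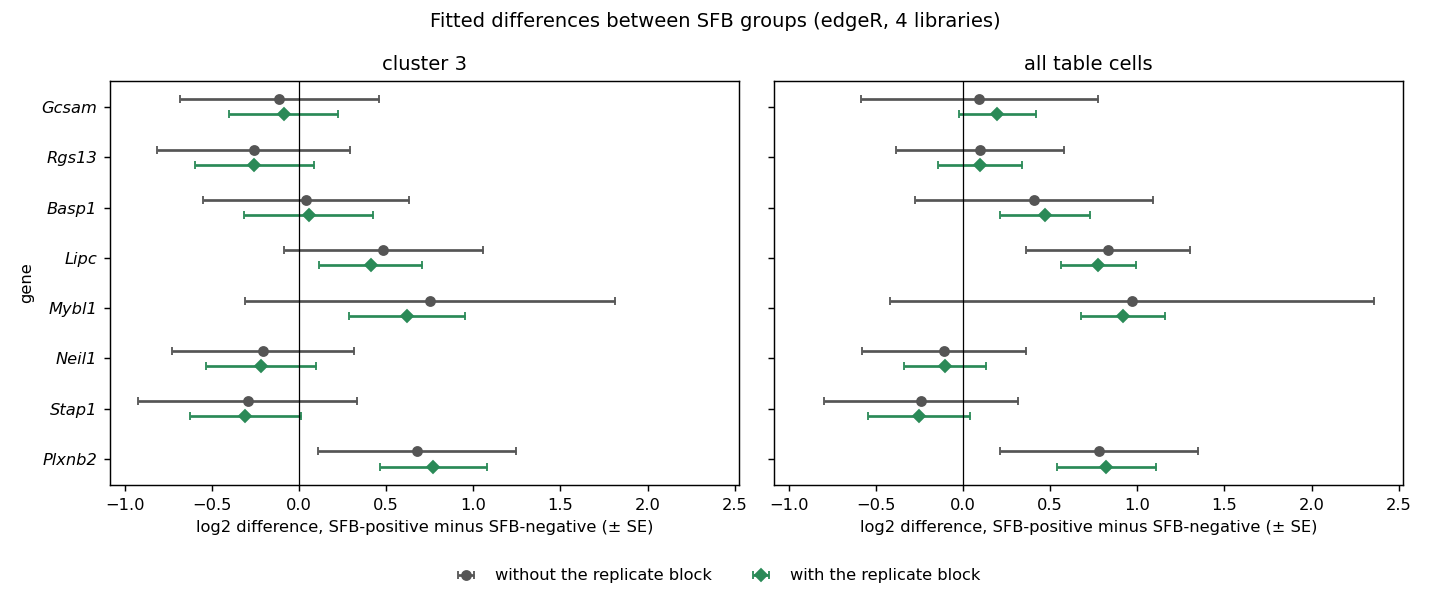
Fitted log2 differences of each gene, SFB-positive minus SFB-negative, with standard errors, in cluster 3 (left) and over all table cells (right), without (grey) and with (green) the replicate number as a block. Lipc and Mybl1 over all table cells with the block, at 0.78 and 0.92, are the points that passed the test.

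Other genes of the same pathways were read from lists in cluster 3. Over all genes tested there the median log2 difference was 0.09 with the block and 0.07 without it. Most genes were therefore above 0 in either fit. Of 12 other germinal-centre genes, such as Bcl6, the master repressor of the programme, 11 were above 0 with the block (median log2 0.33) and none passed. Without the block 10 of them were above 0 (median 0.26). Of 10 dark-zone genes, 7 were above 0 with the block and 5 without it (medians 0.13 and -0.01), and of 8 light-zone genes 4 were above 0 either way. None of these passed in either fit. None of 8 cycling genes passed, with 4 above 0 with the block and 5 without it. Among 10 tested genes of confinement, which include the receptors S1pr2, Cxcr5 and Gpr183 and the G-protein subunits Gnai2 and Gna13, 7 were above 0 with the block and 5 without it (medians 0.11 and -0.01), and none passed. Of 22 family relatives of the 8 genes in the files, 11 passed the filter on low counts, 7 of them were above 0 with the block and 6 without it, and none was called. Of 8 naive markers Fcer2a fell (log2 -1.34 ± 0.30, adjusted p = 0.00169 by edgeR with the block), and of 7 plasma-cell markers Slpi fell (-2.51 ± 0.40, adjusted p = 1.79e-07 by edgeR with the block). With the block 3 of the 8 naive markers and 4 of the 7 plasma-cell markers were above 0 (medians -0.47 and 0.05). Without it the same numbers were above 0 (medians -0.40 and 0.13), and no marker of either list passed.

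The genes most like each member were taken over 25 sums of cluster and library, by Pearson's r of log2(CPM + 10) among 10491 genes. The sums share libraries and depth, so r is a description. Gcsam was most like Arhgap8 (0.99), Esco2 (0.99) and Nusap1 (0.98). Mybl1 was most like Parpbp (0.99), Kif18b (0.99) and Kif4 (0.98), and Plxnb2 most like Cit, Spag5 and Espl1 (0.98 each). Several of these act in mitosis, such as the kinesins encoded by Kif18b and Kif4 and the separase encoded by Espl1.

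Rgs13 was most like Smco4 (0.95), Mef2b (0.94) and Ube2c (0.94), and Neil1 most like S1pr2 (0.95), Arhgap8 (0.94) and Ssbp3 (0.94). Basp1 went with Krt222 (0.95), Fas (0.93) and Arl5a (0.92). Lipc went with Rgs10 (0.93) and Kcnn4 (0.91), and Stap1 with Cr2, which encodes a complement receptor of mature B cells (0.95), Rsrc2 (0.95) and Gripap1 (0.92). Among the 8 genes, Mybl1 with Plxnb2 (0.95) and Rgs13 with Basp1 (0.95) were the closest pairs. Lipc stood at 0.43 with Mybl1 and 0.42 with Plxnb2, and Stap1 was below 0 with each of the other 7, down to -0.70 with Lipc.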

How the data were processed

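RNA was counted in 4 droplet libraries. The deposited matrices hold UMI counts per gene and barcode, whole numbers without normalization, and the authors' table gives a library code, cluster number (other) and UMI counts per cell. The submitters' processing notes name Cell Ranger 5.0.1 and mm10, whereas the file headers name 6.0.0 for the libraries numbered 1, which also carry 15 antibody tags, and 7.0.0 for those numbered 2. The sources used here give no cell filters, clustering settings or use of intron reads.

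Counts were summed per library over cluster 3 or all table cells and tested with edgeR 4.0.16 (R 4.3.3; quasi-likelihood, TMM, filterByExpr, Benjamini-Hochberg over all genes, limit 0.05), with DESeq2 1.42.0 as an alternative. All 8 genes passed the filter. The replicate number as a block was an alternative to the main model and is printed where it changed counts. In the fits with the block, in cluster 3 and over all table cells, most genes took a spread estimated over all genes together. Their p-values therefore say little about a gene's own spread between libraries. Shares and co-detection used the exact hypergeometric expectation at 500 or 1000 UMIs (Python 3.11.15, scipy 1.17.1). T cells outside the table had at least 3 T-marker UMIs, none of 4 B-cell genes and under 10% mitochondrial UMIs. Doublets were not called. The test scripts were tested on simulated data. Named genes are the 8 members, genes of fixed lists and the 3 most correlated genes per member among those with at least 200 UMIs. A few genes of the lists and of this rule are not reported here. The members and lists were chosen with earlier results of these data known.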

Additional observations from a re-analysis of the deposited data

Results flagged for a closer look

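Cells outside the authors' table also carried the 8 genes. Deep cells were barcodes outside the table with under 10% mitochondrial UMIs and more genes than the highest table cell of their library, 155 in SFB-negative 2 and 190 in SFB-positive 2. They stood out because their levels lay above the 95% intervals of the T cells outside the table of the same library. In SFB-negative 2 and SFB-positive 2 respectively, they held Gcsam at 159 and 142 CPM, Rgs13 at 273 and 302 CPM, Basp1 at 587 and 882 CPM, Lipc at 38.2 and 50.3 CPM and Mybl1 at 98.7 and 178 CPM. Neil1 was at 146 and 105 CPM, Stap1 at 233 and 164 CPM and Plxnb2 at 16.2 and 35.0 CPM. The T cells were at 3.66 and 0.447 CPM for Gcsam and at 65.8 and 44.3 CPM for Stap1. Deep cells held 23.1 and 29.1% of all Gcsam UMIs of these libraries, beside 7.20 and 10.3% of all UMIs, and 4.66 and 4.49% of the Stap1 UMIs. These cells enter none of the comparisons, and whether they are doublets was not tested.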

How the results depend on the processing

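In cluster 3, 0 genes were called with the libraries taken as unpaired, 133 with the replicate block and 1 with no filter on low counts, and leaving out a library gave 0 to 7 (7 without SFB-negative 1 and 4 without SFB-positive 2). Over all table cells 0 became 443 with the replicate block, 3 with no filter and 2 with DESeq2, and leaving out a library gave 0 to 3 (3 without SFB-negative 1 and 1 without SFB-negative 2). The 8 genes had 0 calls throughout in cluster 3, and over all table cells 2 with the replicate block and 0 otherwise. Same-numbered libraries deviated together in cluster 3 (r = 0.77 over 9876 genes), but with 2 pairs and no label stating it the numbers are not taken as pairs. With 1 library left out, the lone library is assumed to vary like the others, and log2 differences in cluster 3 ranged from -0.56 to 0.41 for Gcsam, -0.30 to 0.37 for Basp1, -1.34 to 2.17 for Mybl1 and -0.89 to 0.20 for Stap1. Over all table cells they ranged from -0.48 to 1.19 for Gcsam, -0.053 to 0.37 for Rgs13, -0.083 to 1.27 for Basp1, -1.46 to 3.25 for Mybl1 and -0.28 to 0.18 for Neil1. The median co-detection ratio in cluster 3 was 1.04 as counted, and leaving out a library gave 1.03 to 1.05; in cluster 5 it was 1.20 as counted, 1.02 at 1000 UMIs, and 0.872 and 0.991 with either library left out. The cause of these shifts was not tested. No SFB test was run in cluster 5, where a group had 1 library of at least 20 cells. Leaving out barcodes shared between libraries was chosen after seeing the data and gave 0 calls in cluster 3. Plxnb2 had 15 UMIs in cluster 3 of SFB-negative 1, so its differences are limited by depth.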
